A study of Mus musculus with 18 samples.

Results

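The Matn4 and Otos tumour state is a group of 264 cells in a 10x library of a mouse glioma driven by Ras. Its cells were chosen by measured values. A cell was eligible with at least 5000 unique molecular identifiers (UMIs, the counted RNA molecules), at most 20% mitochondrial UMIs, under 3 of 6 myeloid genes and under 3 of 3 genes of dividing cells detected. Of 4384 barcodes, 1365 were eligible. A member had at least 2 of the 6 genes Otos, Trnp1, Matn4, Col20a1, Sema3d and Spock3 detected, and more of them than of any of 3 other sets of 6 genes. These other sets are called here by leading genes: the Gfap and Lcn2 set (65 cells), the Gsx1 and Rorb set (549 cells) and the Crabp2 and Dlk1 set (122 cells), and 365 eligible cells fell in no set. Members made up 19.3% of the eligible cells (95% exact Clopper-Pearson interval 17.3% to 21.5%, counting error only).

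The genes of the rule encode proteins of several kinds. Matn4 encodes matrilin-4, an extracellular matrix adaptor protein, and Col20a1 a collagen of the fibril-associated (FACIT) family. Spock3 encodes a secreted proteoglycan of the testican family, Sema3d a secreted class 3 semaphorin that guides migrating cells and axons through neuropilin and plexin receptors, Trnp1 a nuclear protein of neural progenitors, and Otos otospiralin, a small protein first known from the inner ear. Oligodendrocyte precursor cells are glial progenitors that carry Pdgfra, Cspg4, Sox10, Olig1 and Olig2, and they are known as a cell type that gliomas can resemble or arise from.

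The study set mouse gliomas with different drivers beside each other and treated some with PLX3397, an inhibitor of the CSF1 receptor on which macrophages and microglia depend. The 10x library and a Drop-seq library were each made from untreated primary brain tumours with HRasV12 and dominant negative p53, dissociated with collagenase and freed of red cells by lysis. There is 1 library of each kind, so no comparison between cells has a test. The bulk groups included whole Ras tumours under PLX3397 (n = 4, 100 mg/kg daily by gavage from day 7 after implantation until moribund). Other whole Ras tumours were under vehicle (n = 4, from day 7, also labelled untreated). Ras lines (n = 2) and PDGF lines (n = 3) were in culture. CD11b-positive cells were taken with beads from PDGFB tumours treated from day 14 for 3 days with PLX3397 (n = 2, 100 mg/kg) or vehicle (n = 1). Every sample is labelled Boy/J, and no age is stated. Ras lines were grown with EGF and FGF, and PDGF lines in another medium with PDGF-AA and PDGF-BB as well. Driver and medium therefore cannot be told apart between them. Growth factors are given at 20 ng/mL for lines of both kinds. The 10x feature list names the mouse Hras gene and no transgene, so tumour cells and precursor cells of the host brain were not told apart.

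In all, 59.3 M UMIs (M: units of 1e6) were counted in 10x, and 9.67 M in the 5000 barcodes of Drop-seq. The libraries shared 0 barcode strings, which differ in length. Xist was at 0 UMIs in 10x members and Ddx3y was found in 58.0% of them, whereas Xist was found in 43.9% of Drop-seq members and Ddx3y is not listed there. The part of this difference in comparisons between the libraries was not tested. Bulk libraries held 26.8 to 35.8 M counts. Among the Ras tumours, vehicle replicate 4 had Sox10 at 0.507 counts per M (CPM), against 11.4 to 25.1 CPM in the other vehicle libraries.

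The 300 bases around a RefSeq start of Otos and around the second start of Matn4 are shown. They were taken because these genes name the state and both windows hold the E-box CAGCTG. It is a form of the CANNTG sequence that basic helix-loop-helix factors such as Olig2 bind. Each window runs from 250 bases before to 50 bases after the start, on the minus strand of GRCm38.p6. The Otos window is chr1:92648792-92649091 and the Matn4 window chr2:164404769-164405068. Capitals mark CAGCTG, which reads the same on both strands.
Otos: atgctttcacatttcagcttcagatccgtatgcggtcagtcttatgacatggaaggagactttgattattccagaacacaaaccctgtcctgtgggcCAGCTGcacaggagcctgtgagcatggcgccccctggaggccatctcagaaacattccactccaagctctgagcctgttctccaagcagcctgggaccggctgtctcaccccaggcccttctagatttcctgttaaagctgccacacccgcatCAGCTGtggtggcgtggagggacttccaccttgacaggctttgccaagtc
Matn4: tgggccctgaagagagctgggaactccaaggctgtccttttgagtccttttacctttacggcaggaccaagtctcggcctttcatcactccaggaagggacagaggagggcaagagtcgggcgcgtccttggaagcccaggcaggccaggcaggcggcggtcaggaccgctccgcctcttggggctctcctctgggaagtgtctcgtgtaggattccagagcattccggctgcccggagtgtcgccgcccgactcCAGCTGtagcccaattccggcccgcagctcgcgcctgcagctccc
Counted from the start used for each window, the E-box of Otos starts 153 bases before it and again at base 1. That of Matn4 starts at base 6. The starts used for Otos, Trnp1, Col20a1 and Spock3 and the second of Matn4 lie inside the gene coordinates given below, as does that of Sema3d by a few bases. Another start would give other positions. Spock3 holds the E-box 67 bases before a start, and Trnp1, Col20a1 and Sema3d hold none in their windows. The sequence was chosen after these windows had been read, with others looked at beside it. The windows are from RefSeq, where 6 of the 6 genes of the rule matched and 3 hold the sequence, against 18.3% of 27025 genes and 4 of the 33 matched of 50 state genes described below (12.1%). The match describes these letters and shows no binding.

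The 6 genes of the rule chose the members, so their levels are a description. Otos (ENSMUSG00000044055, chromosome 1, 92644218 to 92648899, GRCm38) stood at 0.412 UMIs per 10000 in members (282 UMIs, Poisson interval 0.365 to 0.463) and at 0.0409 in the other eligible cells (99 UMIs, 0.0333 to 0.0498). It was detected in 42.8% of members, in 5.99% of the other eligible cells and in 10.6% of the 404 cells with 3 or more myeloid genes. These myeloid cells, with a median of 16524 UMIs against 20837.5 in members, had Otos at 0.238 UMIs per 10000, under the level in members and above that in the other eligible cells. The share in the other eligible cells also lay below that in the myeloid cells. The rule takes cells with Otos out of the other eligible cells, which lowers both their level and their share. Myeloid cells had Matn4 in 22.8%, Sema3d in 21.0%, Trnp1 in 17.3%, Col20a1 in 11.9% and Spock3 in 6.93%. The part of free RNA and of doublets in these shares was not tested, and no doublet caller was run.

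**Figure D1:**
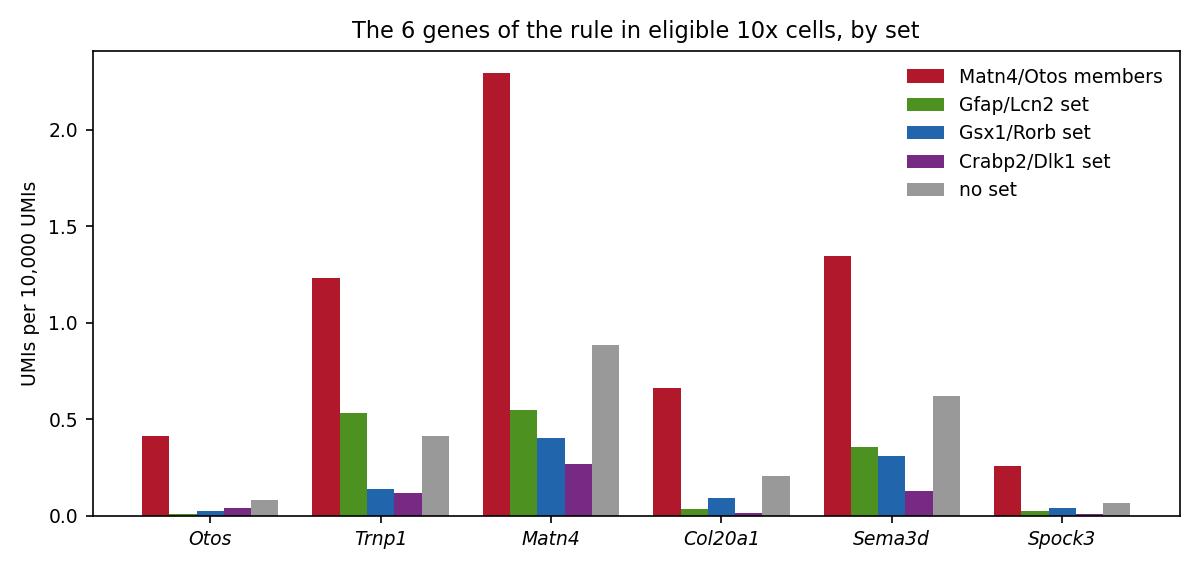
Summed UMIs per 10000 UMIs of the 6 genes of the rule (vertical axis) in eligible 10x cells, with a bar for each set and no error bars. Members have the highest bar for each gene because these genes chose them, and the cells of no set come next for 5 of the 6 genes.

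Matn4 (ENSMUSG00000016995, chromosome 2, 164389393 to 164405160) was detected in 91.3% of members and in 35.97% of the other cells, at 2.29 and 0.530 UMIs per 10000. Sema3d (ENSMUSG00000040254, chromosome 5, 12383161 to 12588953) was found in 88.6% of members against 33.6%, at 1.35 and 0.375 UMIs per 10000. Trnp1 (ENSMUSG00000056596, chromosome 4, 133491097 to 133499645) was found in 79.2% of members against 25.2%, and Col20a1 (ENSMUSG00000016356, chromosome 2, 180983323 to 181017545) in 54.9% against 12.1%. Spock3 (ENSMUSG00000054162, chromosome 8, 62951000 to 63357101) had 175 UMIs in members and was found in 37.9% of members against 7.08% of the other cells.

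With each cell thinned to 5000 UMIs, shares were smaller in both groups and members were still higher for these genes. Otos was then found in 17.4% of the 264 members and in 1.18% of the other eligible cells. Matn4 was found in 58.0% and 17.2%, Sema3d in 45.8% and 13.4%, and Trnp1 in 42.0% and 10.1%. Among the other sets, Otos ran at 0.0065 UMIs per 10000 in Gfap and Lcn2 cells, 0.0242 in Gsx1 and Rorb cells and 0.0388 in Crabp2 and Dlk1 cells, and at 0.0797 in cells of no set. Trnp1 stood at 1.23 UMIs per 10000 in members and, as the next highest, at 0.533 in Gfap and Lcn2 cells.

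Members differed in how many of these genes they carried. Exactly 2 genes were detected in 39 members, 3 in 57, 4 in 77, 5 in 61 and all 6 in 30. Matn4 and Sema3d were detected together in 215 members (81.4%), whereas Otos and Spock3 were detected together in 48 (18.2%). The other sets were not silent in members. At least 1 gene of the Gsx1 and Rorb set was found in 242 of 264 members, at least 1 of the Crabp2 and Dlk1 set in 130 and at least 1 of the Gfap and Lcn2 set in 101. Just inside the rule lay the 39 members with 2 genes of the set and at most 1 of any other. Just outside lay 172 eligible cells with 2 or more genes of the set that tied with another set, and 198 more had 2 or more but more of another set.

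Depth moved with membership. Members had a median of 20837.5 UMIs and 5265 genes per cell, against 18117 UMIs and 4734 genes in the other eligible cells, and the mitochondrial share was alike at 7.61% and 7.72%. Members made up 13.2% of eligible cells with 5000 to 10000 UMIs, 17.2% up to 20000, 22.8% up to 30000 and 25.5% above. With every cell thinned to 5000 UMIs the rule found 187 members, of which 144 were among the 264.

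Beyond the rule, 50 state genes were taken from the same cells: the highest ratios of summed UMIs of at least 2 among genes at 0.5 UMIs per 10000 or more in members and found in at least 10% of them. Of 3239 such genes, 51 reached 2-fold, a background of 1.57%, and since the cells were chosen on related values this count is a description. Clca3a1, a member of the calcium-activated chloride channel regulator family, led with 2.04 UMIs per 10000 in members and 0.482 in the other cells, a ratio of 4.23 (95% exact interval of counting error 3.91 to 4.57). The last gene on the list, Atp1b2, had a ratio of 2.01, and the next below it, Tshz2, 2.00.

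Among the state genes were ion pump and glial proteins. Fxyd7, which encodes a small regulator of the sodium and potassium pump in the brain, had 3.51 UMIs per 10000 in members and 1.22 in the other cells, and Atp1b2, the glial beta subunit of the pump, had 3.36 and 1.68. S100b, a calcium-binding protein of glia, stood at 4.49 UMIs per 10000 in members against 1.71, and was detected in 94.7% of members. Aldoc, the brain form of aldolase, had 1.47 and 0.505 UMIs per 10000, and Clu, which encodes the secreted chaperone clusterin, had 3.42 and 1.44.

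Genes of acute-phase and complement proteins were also on the list. Serpina3n, an inhibitor of serine proteases that reactive glia make, stood at 4.78 UMIs per 10000 in members and 1.55 in the other cells. C4b, a complement component, stood at 2.75 and 0.910. C4b was also found in 52.0% of myeloid cells, against 88.6% of members and 54.4% of the other eligible cells. Of 10 interferon response genes, 2 were at 0.5 UMIs per 10000 or more in members or in the other cells (called the level from here on), 0 of them reached 2-fold and 1 had a ratio of 0.5 or less. Of 8 MHC class I genes, 3 were at the level and all 3 had a ratio under 1, with a median of 0.650, but the median was 1.26 against Gsx1 and Rorb cells alone. In the Drop-seq library described below the list summed to 16.6 UMIs per 10000 in members and 6.56 in the other cells, the opposite direction.

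Other genes on the list encode receptors, signalling proteins and adhesion proteins. Gria4, a subunit of the AMPA glutamate receptor, stood at 1.86 UMIs per 10000 in members and 0.675 in the other cells, a ratio of 2.75. Adora1, the adenosine A1 receptor, had a ratio of 2.76. Gnao1, a G protein alpha subunit, had 2.23. Nfasc, a cell adhesion protein of axons and glia, had 2.31. Tnr, which encodes the matrix protein tenascin-R made by oligodendrocyte lineage cells, stood at 3.33 and 1.35 UMIs per 10000. Rit2, a small GTPase of neurons, stood at 0.566 in members and 0.180 in the other cells, and Rab27b, a GTPase of vesicle release, at 0.521 and 0.198. Sdc3, a heparan sulfate proteoglycan of the cell surface, was found in 94.3% of members at 2.78 UMIs per 10000, against 71.4% and 1.20. Pnlip, pancreatic lipase, stood at 2.22 and 0.744.

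Per cell at 5000 UMIs, the summed level of the 50 genes had a median of 88 UMIs per 10000 in members, 42 in the Gfap and Lcn2 set, 38 in the Gsx1 and Rorb set, 15 in the Crabp2 and Dlk1 set and 40 in cells of no set. The ranges overlapped, from 2 to 300 in members and from 0 to 146 in the Gsx1 and Rorb set. Against the Gsx1 and Rorb cells alone, which are 549 of the cells used to choose these genes, 33 of the 50 kept a ratio of at least 2.

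**Figure D2:**
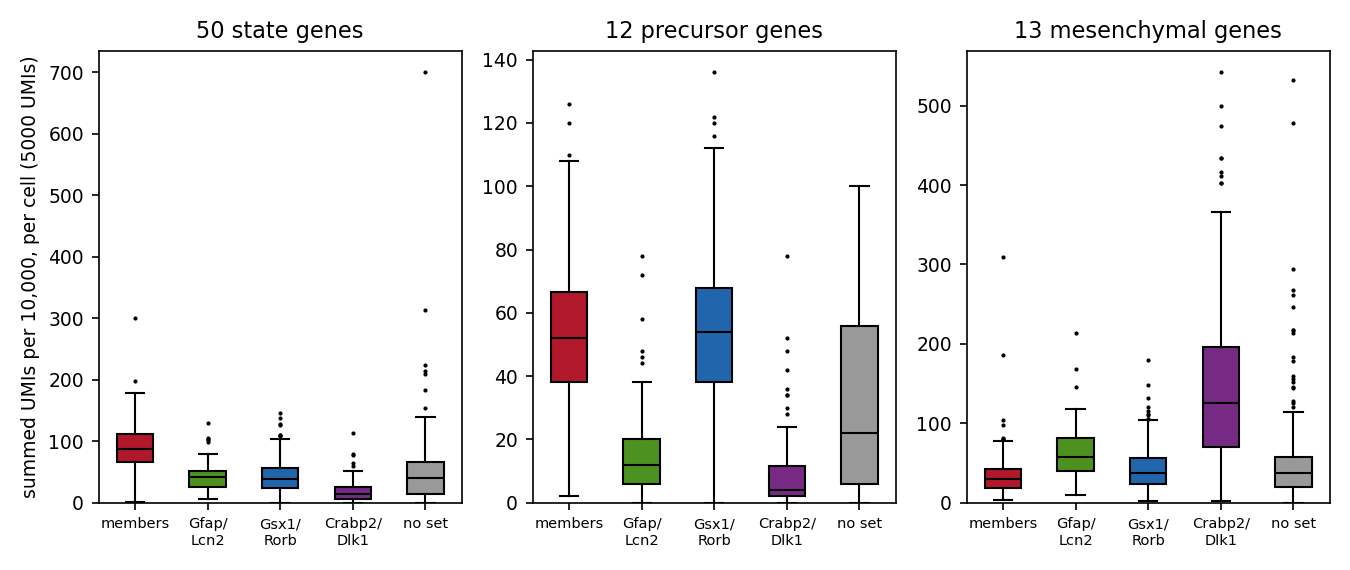
Summed UMIs per 10000 in each eligible 10x cell thinned to 5000 UMIs (vertical axis) for 3 gene lists, with boxes for median and quartiles, whiskers to 1.5 times the interquartile range and points beyond. Members have a median of 88 for the state genes, and they share a precursor level near 52 with the Gsx1 and Rorb set (54).

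Members carried most of the listed markers of oligodendrocyte precursors, while 1 of the 12 had 0 UMIs in members. Of the 12 genes on this list, 10 were at the level, all 10 had a ratio above 1, and 1 of them, Tnr, reached 2-fold, with a list median of 1.41 against 1.04 over all 3644 genes at the level, of which 57.0% had a ratio above 1, 1.54% reached 2-fold and 1.92% had a ratio of 0.5 or less. Against Gsx1 and Rorb cells alone the list median was 1.05. Olig1, a transcription factor of the lineage, was detected in 98.1% of members at 13.7 UMIs per 10000, against 9.15 in the other cells. Sox10, another lineage factor, was detected in 92.4% at 2.61 against 1.93, and Pdgfra, the receptor for PDGF-AA, in 93.2% at 4.76 against 3.79. Lhfpl3, a membrane protein gene of precursors, stood at 7.85 and 4.76 UMIs per 10000 and Cspg4, the NG2 proteoglycan, at 1.48 and 0.872. Myeloid cells also had a share with these genes, 63.1% for Olig1 and 33.9% for Sox10. Of the summed list, the median over cells was 52 UMIs per 10000 in members, 54 in the Gsx1 and Rorb set, 12 in the Gfap and Lcn2 set and 4 in the Crabp2 and Dlk1 set.

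Of 12 markers of committed precursors, 3 were at the level, all 3 had a ratio above 1 and 0 reached 2-fold, with a median ratio of 1.49, or 1.35 against Gsx1 and Rorb cells alone. Bcas1, which marks early myelinating stages, stood at 5.04 UMIs per 10000 in members and 3.03 in the other cells. Gpr17, the receptor that marks committed precursors, stood at 0.0701 UMIs per 10000 in members and 0.0600 in the other cells. Bmp4 was found in 0.379% of members and Enpp6 in 0.379%. Of 12 markers of myelinating cells, 5 were at the level, 4 of them had a ratio above 1 and 1 reached 2-fold. Their median ratio was 1.51, or 1.41 against Gsx1 and Rorb cells, and the list summed to 11.5 UMIs per 10000 in members and 7.03 in the other cells. Mbp, myelin basic protein, stood lower, at 0.374 UMIs per 10000 in members against 0.582 in the other cells. Mog had 0.00876 and 0.0232 UMIs per 10000 and Aspa 0 UMIs in members.

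Of 12 astrocyte markers, 7 were at the level, of which 5 had a ratio above 1, 3 reached 2-fold (Aldoc, S100b and Atp1b2) and Sox9 had a ratio of 0.5 or less. Their median ratio was 1.94, or 1.98 against Gsx1 and Rorb cells, above the 1.41 and 1.05 of the precursor list, and the list summed to 13.9 UMIs per 10000 in members and 8.45 in the other cells. Slc1a2, the glutamate transporter of astrocytes, stood at 2.30 UMIs per 10000 in members and 1.19 in the other cells. Sox9, a factor of astrocytes and progenitors, stood at 0.273 and 0.758. Aqp4, the water channel of mature astrocytes, had 0 UMIs in members, and Gfap stood at 0.108 and 0.261. The Gfap and Lcn2 set had Aldoc at 1.53 and S100b at 4.29 UMIs per 10000, beside 1.47 and 4.49 in members.

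Progenitor and neuron lists lay on opposite sides of a ratio of 1. Of 12 neural stem and progenitor markers, 6 were at the level, 1 of them had a ratio above 1 and 0 reached a ratio of 2 or of 0.5. Fabp7, a fatty acid binding protein of radial glia, stood at 16.6 UMIs per 10000 in members and 21.5 in the other cells, and Sox2, a stem cell factor, at 1.74 and 2.19. Of 12 neuron markers, 6 were at the level and all 6 had a ratio above 1. Map2, a microtubule protein of dendrites, stood at 5.12 and 3.05 UMIs per 10000, and Tubb3 at 3.04 and 1.88, while Rbfox3, which marks mature neurons, had 0 UMIs in members.

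Of 13 MAPK feedback and output genes, which rise with Ras signalling, 11 were at the level and 0 reached 2-fold in either direction. Of these 11, 8 had a ratio above 1, against 57.0% of all genes at the level, and 3 had a ratio under 1. Ccnd1, which encodes cyclin D1, stood at 41.2 UMIs per 10000 in members and 27.3 in the other cells, a ratio of 1.51. Phlda1 stood at 4.65 and 7.08, and Dusp6, a phosphatase that acts on ERK, at 1.55 and 2.29. Against Gsx1 and Rorb cells the median ratio of the list was 0.970, against 1.14 for all other eligible cells. Of 12 genes for brain matrix proteoglycans and tenascins, 6 were at the level. Cspg5, a membrane proteoglycan, stood at 16.8 and 8.57 UMIs per 10000, and Tnc, tenascin-C, stood lower at 0.585 and 1.83. Relatives of the rule genes were mostly under the level. Col16a1, another FACIT collagen, stood at 1.20 and 0.599, Spock2, another testican, at 0.581 and 0.555, and Matn1, another matrilin, had 0 UMIs. Of 13 genes of class 3 semaphorins and their receptors, 1 was at the level, Plxna2, a plexin, at 0.445 and 0.628 UMIs per 10000. Nrp1, a neuropilin, stood at 0.0759 in members and 0.327 in the other cells.

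Genes of mesenchymal glioma stood lower in members than in the other eligible cells. Of 13 measured, 9 were at the level, all 9 had a ratio under 1, 6 had a ratio of 0.5 or less, and the list median was 0.355. Against the Gsx1 and Rorb cells alone the median ratio of the same genes was 1.22. The summed list was nevertheless lower in members, at 34.7 UMIs per 10000 against 44.8 in Gsx1 and Rorb cells. Over thinned cells its median was 30 in members and 38 in Gsx1 and Rorb cells. Vim, vimentin, stood at 21.3 UMIs per 10000 in members and 29.0 in the other eligible cells. Timp1, an inhibitor of matrix proteases, stood at 2.16 and 6.10 in the same order. The Crabp2 and Dlk1 set held the highest levels, with Timp1 at 24.9 and S100a6 at 25.3, against 0.858 UMIs per 10000 of S100a6 in members.

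Of 3135 genes at the level in the other cells and found in at least 10% of them, without ribosomal, mitochondrial, haemoglobin and provisionally named genes and those of the rule, 54 (a background of 1.72%) had a ratio of 0.5 or less in members. The lowest of these was Apod, apolipoprotein D, at 0.0920 UMIs per 10000 in members and 1.78 in the other cells. Spp1, osteopontin, stood at 0.499 and 5.20, and at 32.7 in Crabp2 and Dlk1 cells, while Igfbp7, a secreted binding protein of vessels, stood at 0.347 and 3.24. Areg, an EGF receptor ligand, stood at 0.0963 and 0.882. Lgals3, galectin-3, stood at 0.276 and 1.77. Klf4, a zinc finger factor, stood at 0.131 and 0.598. Markers of other cell types moved with these values. The 10 endothelial markers summed to 0.623 UMIs per 10000 in members and 2.89 in the other cells. The 5 erythroid genes summed to 12.04 and 97.3, and the 8 pericyte markers, which include Cspg4, to 1.65 and 2.56. In Gsx1 and Rorb cells these lists stood lower than in members, at 0.217, 4.36 and 1.16 in the same order. The erythroid genes summed to 332 in cells of no set. Of 94 eligible cells with 4 or more endothelial, pericyte, fibroblast or erythroid genes, 7 were members, and without these 94 cells 40 genes had a ratio of 0.5 or less in place of 54, 10 of the 15 lowest among them. Against the Gsx1 and Rorb cells alone, 14 genes did. The part of other cell types in these ratios was otherwise not tested.

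Cells with more genes of the set had more of the state genes. At 5000 UMIs per cell, the 50 genes summed to a mean of 34.3 UMIs per 10000 in 726 cells with 0 genes of the set, 56.5 in 368 cells with 1, 77.1 in 167 with 2, 98.9 in 75 with 3 and 118 in 29 with 4 or more. The precursor genes had means of 36.5, 42.4, 50.5, 56.4 and 65.7 over the same steps, and the mesenchymal genes of 59.8, 52.3, 43.7, 33.2 and 22.9. These steps use the values that chose the cells and carry no test.

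**Figure D3:**
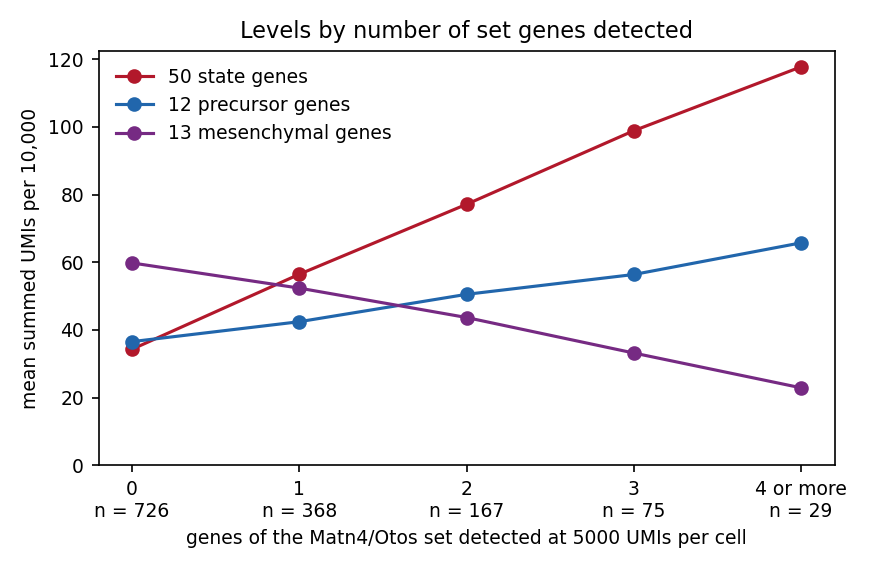
Mean summed UMIs per 10000 (vertical axis) of 3 gene lists in eligible 10x cells thinned to 5000 UMIs, by how many of the 6 genes of the rule were detected (horizontal axis). The state genes run between 34.3 and 118 and the mesenchymal genes between 59.8 and 22.9 along the steps.

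The genes most like the set were found by Spearman correlation, over 1365 thinned cells of 1 library and 5876 genes, with the number of set genes detected. Dbi, which encodes the acyl-CoA binding protein that also acts on GABA receptors, had a rho of 0.41, and among the others were Tmem176a (0.39), Tshz2 (0.39), C4b (0.39), S100b (0.37), Serpine2 (0.37) and Pcsk1n (0.37). In a neighbour graph made without the 33 genes of the rule, 44.5% of the 15 nearest neighbours of members were members, against 19.3% of eligible cells, 23.6% were of the Gsx1 and Rorb set and 27.7% of no set. The neighbours of Gsx1 and Rorb cells were of that set in 73.2%, against 40.2% of eligible cells. For the Gfap and Lcn2 set the values were 35.4% and 4.76%, and for the Crabp2 and Dlk1 set 47.2% and 8.94%.

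Drop-seq cells had no part in choosing the 50 genes, although the rule was applied to them too. With a floor of 1000 UMIs, 57 of 3174 eligible cells (1.80%, exact interval 1.36% to 2.32%) were members, and 501 fell in the Gsx1 and Rorb set. The share cannot be set against that of 10x, since Drop-seq members had a median of 2463 UMIs and 10 of the 57 had 3 or more genes of the set. Of these Drop-seq members, 54 (94.7%) had 0 myeloid genes detected, against 90.5% of the other eligible Drop-seq cells. In 10x, with more UMIs per cell, 130 of the 264 members (49.2%) had 0, against 48.6% of the other eligible cells. Otos was found in 40.4% of Drop-seq members and 0.674% of the other eligible Drop-seq cells, and Matn4 in 61.4% and 3.72%, as the rule fixes.

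Of the 50 state genes, 48 had a ratio above 1 and 30 a ratio of at least 2, against 51.7% and 10.7% of 11260 genes with at least 20 UMIs, and the median ratio was 2.20, with a range of 0.872 to 6.41. Arl6ip1, a protein of the endoplasmic reticulum, had 275 UMIs in members and a ratio of 1.87 (1.65 to 2.11). S100b stood at 8.39 UMIs per 10000 in members and 1.87 in the other cells, a ratio of 4.48 (3.75 to 5.32). Pnlip had 1.75 and 0.353, a ratio of 4.95 (3.27 to 7.24). The 2 genes under 1 were Mmd2, at 0.872 (0.374 to 1.74), and Bmp7, a BMP ligand, at 0.950 (0.407 to 1.89), and both intervals of counting error hold 1. The precursor markers summed to 58.3 UMIs per 10000 in members and 44.6 in the other cells, with Olig1 at 14.9 and 12.4 and Sox10 at 2.68 and 2.21.

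Of the 54 genes lower in 10x members, 17 (31.5%) had a Drop-seq ratio of 0.5 or less, against 17.1% of all genes, 12 were above 1, and the median was 0.677. Igfbp7 had 1 UMI in members, a ratio of 0.0443 (0.00112 to 0.248), and Cd74 had 0. S100a6 had 1.05 UMIs per 10000 in members and 0.921 in the other cells.

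**Figure D4:**
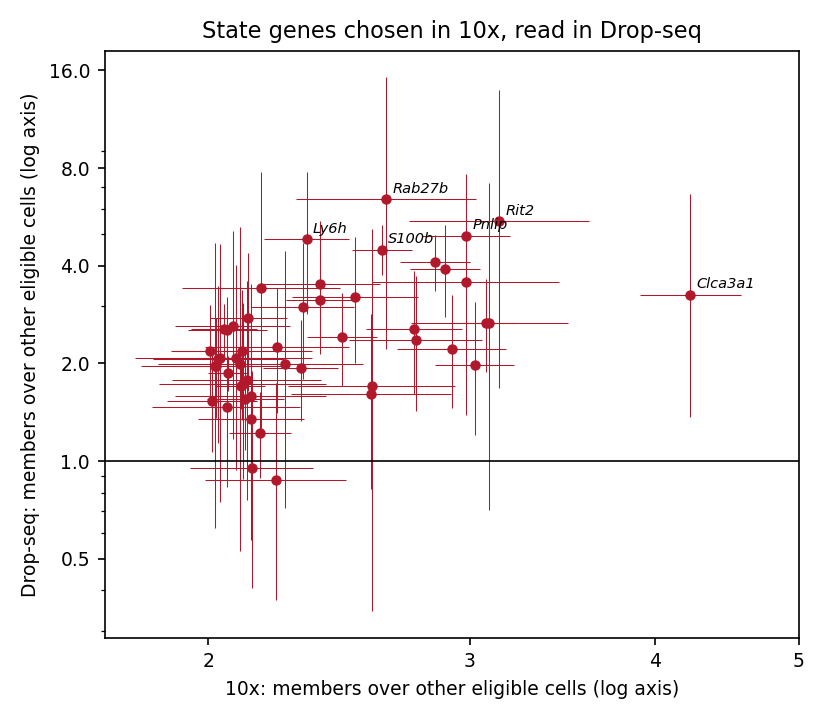
Ratio of the level in members to that in other eligible cells for the 50 state genes, in 10x (horizontal log axis) and in Drop-seq (vertical log axis), with exact 95% intervals of counting error. In Drop-seq, 48 of the 50 points lie above 1.

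In the Ras tumours, PLX3397 against vehicle asked whether genes of the state differ in whole tumours of treated mice. Fewer cells of the state and less RNA per cell cannot be told apart in bulk. Otos had 0.156, 0.118, 0.170 and 0.119 CPM in the PLX3397 libraries and 0.120, 0.353, 0.1105 and 0.135 CPM in the vehicle libraries, 42 counts in all, and did not pass the filter on low counts. Matn4 had 8.48, 2.51, 1.27 and 4.79 CPM under PLX3397 and 4.48, 7.97, 6.08 and 0.473 CPM under vehicle. The groups overlapped for both genes, with the lowest Matn4 value in vehicle replicate 4. The log2 fold change of Matn4 was -0.16 (SE 0.81, edgeR quasi-likelihood test, adjusted p = 0.9998), and -0.54 without that library. Otos in members stood at 0.412 UMIs per 10000 of 10x, while no tumour library had more than 0.353 CPM. The first value is per 10000 and the second per M, so the bulk level was far lower than that of members. The assays and scales differ, the cause of the gap was not tested, and bulk Otos values say little about the state.

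Of the 5 genes of the rule that were tested, edgeR called 0 at an adjusted p under 0.05, 0 had an unadjusted p under 0.05, and 2 had a positive and 3 a negative fold change. Trnp1 had 41.6 ± 29.3 CPM under PLX3397 and 36.8 ± 33.4 CPM under vehicle (SD, n = 4 each), and Spock3 13.7 ± 11.7 and 8.80 ± 7.41 CPM. The log2 fold change of Trnp1 was 0.18, and -0.22 without vehicle replicate 4. Across all 18366 genes, 0 were called by edgeR and 3.53% had an unadjusted p under 0.05 (0.414% higher and 3.11% lower). DESeq2, run on 35842 genes without the filter on low counts, called 174, of which 171 were lower. Of 48 state genes tested, edgeR and DESeq2 called 0, and 0 had an unadjusted p under 0.05. Their fold changes were positive for 42, against 50.3% of all genes, and negative for 6, against 49.7%, with a median log2 fold change of 0.27, against 0.0015 for all genes. Bmp7 had 68.1 ± 14.3 CPM under PLX3397 and 47.4 ± 17.0 CPM under vehicle, and Ly6h 57.1 ± 60.0 and 26.3 ± 20.3 CPM (SD, n = 4 each). Rab27b had 10.6 ± 2.2 and 9.11 ± 0.83 CPM, B3gat2 51.7 ± 5.0 and 48.0 ± 2.5 CPM and Dbndd2 72.7 ± 32.9 and 58.4 ± 17.4 CPM. Clca3a1 had 2.39 ± 1.02 CPM under PLX3397 and 4.54 ± 3.63 CPM under vehicle. The median over the state genes changed with single libraries: it was -0.18 without PLX3397 replicate 1, 0.0050 without vehicle replicate 4 and 0.77 without vehicle replicate 2. Of the 48, 13 had a positive fold change without PLX3397 replicate 1 and 25 without vehicle replicate 4, in place of 42, against 40.7% and 58.0% of all genes.

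Markers of neurons and of oligodendrocytes moved with the state genes across these libraries. In PLX3397 replicate 1, the state genes summed to 7527 CPM, the neuron list to 3338 CPM and the oligodendrocyte list to 1917 CPM, the highest of the 8 libraries, and in vehicle replicate 4 to 1554, 236 and 84.4 CPM, the lowest of the 8. The oligodendrocyte list had 12 of 12 positive fold changes and the neuron list 11 of 12. Their part in the values of the state genes was not tested. The mean log2 difference of the summed state genes was 0.48 in the libraries with Ddx3y and 0.16 in those without it (n = 2 against 2 each), and 0.32 in all. The value of 0.16 rests on vehicle replicate 4. Among libraries without Ddx3y the PLX3397 libraries had 2587 and 3296 CPM and the vehicle libraries 4375 and 1554 CPM, so without vehicle replicate 4 both PLX3397 libraries lay under vehicle. The 6 myeloid genes of the rule were all lower at an unadjusted p under 0.05 and 0 were called, with Ptprc, a gene of white blood cells, at 22.5 ± 11.2 CPM under PLX3397 and 68.3 ± 22.0 CPM under vehicle.

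**Figure D5:**
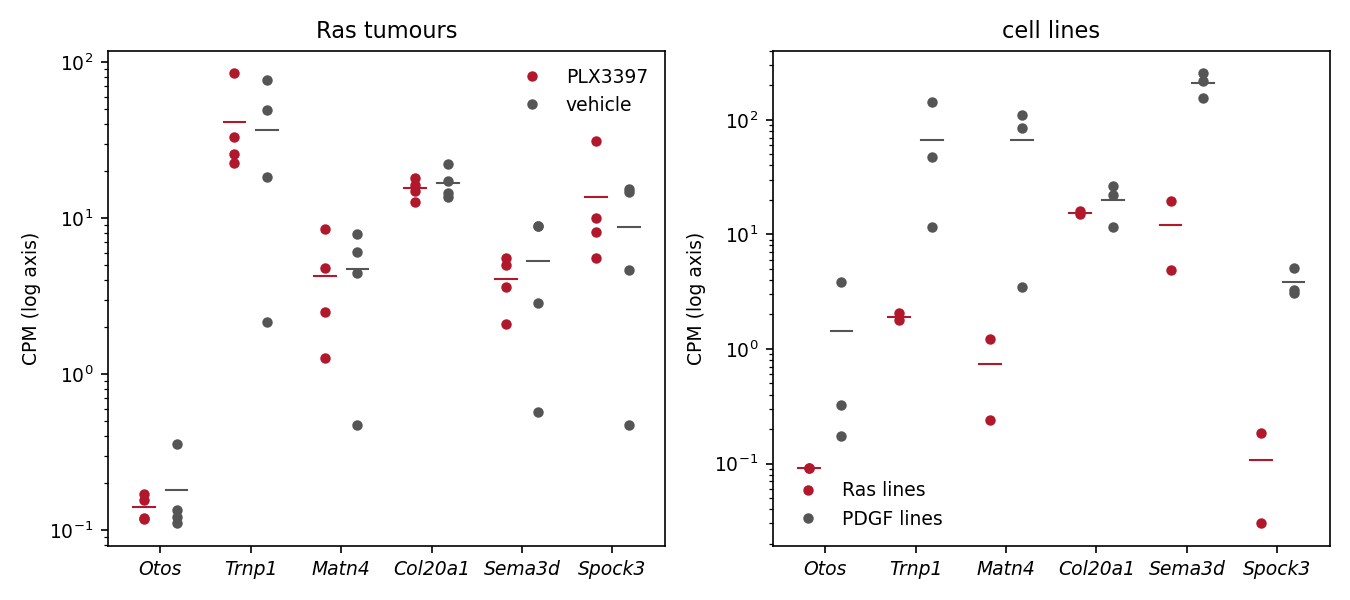
TMM-scaled CPM (vertical log axes) of the 6 genes of the rule in each bulk library, with short lines for group means, in Ras tumours (PLX3397, vehicle) and in cell lines (Ras, PDGF). The tumour groups overlap for each gene, and Sema3d, Spock3, Trnp1, Otos and Matn4 of the Ras lines lie under every PDGF line.

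Sema3d had 4.89 and 19.5 CPM in Ras lines and 219, 154 and 255 CPM in PDGF lines. Matn4 had 0.241 and 1.23 CPM in Ras lines and 84.9, 3.48 and 110 CPM in PDGF lines. Spock3 had 0.0302 and 0.184 CPM in Ras lines and 3.09, 5.12 and 3.26 CPM in PDGF lines. Every Ras line lay under every PDGF line for these 3 genes, and for Trnp1 and Otos, as for 20.6% of all 17475 genes, while Col20a1 overlapped, at 14.995 and 16.02 CPM in Ras lines and 21.9, 26.4 and 11.7 CPM in PDGF lines.

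Of the 6 genes, edgeR called 0, and 4 had an unadjusted p under 0.05 and were lower, against 7.46% of all 17475 genes. Sema3d had a log2 fold change of -4.10 (SE 0.74, adjusted p = 0.209) and Spock3 of -5.11 (SE 0.96, adjusted p = 0.209). Over all 17475 genes edgeR called 0, with 16.3% at an unadjusted p under 0.05. DESeq2, run on 35842 genes without the filter on low counts, called 2035, of which 1021 were lower. All 6 had a negative fold change, against 49.1% of all genes. DESeq2 called Sema3d, Spock3, Matn4 and Trnp1 lower, and edgeR without Ras line 2 called Sema3d and Spock3 lower, with adjusted p of 0.0122 and 0.0266. That fit holds 1 Ras line, which is assumed to vary like the PDGF lines. Without Ras line 1, edgeR called 0 genes, and the adjusted p was 0.202 for Sema3d and 0.210 for Spock3.

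Of 49 state genes tested, 43 had a negative fold change, against 49.1% of all genes, with a median log2 fold change of -1.62. Of the 49, 16 had an unadjusted p under 0.05 and were lower, against 7.46% of all genes. EdgeR called 0 of the state genes and DESeq2 15, all lower, where DESeq2 called 1021 of 35842 genes lower. Tnr had 46.1 and 60.5 CPM in Ras lines and 680, 1010 and 669 CPM in PDGF lines, a log2 fold change of -3.88 (SE 0.33, adjusted p = 0.204). Bmp7 had 181 and 104 CPM in Ras lines and 418, 519 and 404 CPM in PDGF lines. The precursor list moved with them, with 12 of 12 negative fold changes, and Sox10 had 0.996 and 0.523 CPM in Ras lines against 670 to 1123 CPM in PDGF lines. The part of the precursor genes in this was not tested.

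CD11b is a surface protein of myeloid cells, and how far RNA of other cells accounts for state genes in the selected cells was not tested. With 1 vehicle library, the spread comes from the PLX3397 libraries alone, and what sets that vehicle library apart cannot be told apart from the treatment. Of 46 state genes tested, 9 were called higher in the PLX3397 libraries and 0 lower, against 4.57% and 1.78% of 15052 genes (6.35% in either direction), and 42 had a positive fold change, against 50.5%. Clu had 174 and 142 CPM under PLX3397 and 21.6 CPM under vehicle, a log2 fold change of 2.87 (SE 0.22, edgeR adjusted p = 0.0305), and Gnao1, Nfasc, Atp1b2, Aldoc, S100b, Lmcd1 and Mmd2 were also among those called higher. Other lists moved with them. Of 12 astrocyte markers 8 were called higher, of which Aldoc, S100b and Atp1b2 are state genes too. Also called higher were 4 of 12 oligodendrocyte, 4 of 10 neuron and 4 of 9 fibroblast markers, 4 of 6 genes of the Gfap and Lcn2 set and 3 of 6 of the Crabp2 and Dlk1 set. Of the genes of the rule, 5 were tested and 0 were called. All 5 had a positive fold change, against 50.5% of all genes, with Sema3d at 1.77 and 2.52 CPM under PLX3397 against 0.534 CPM under vehicle. Of 11 precursor markers 5 were called higher, and Pdgfra had 51.9 and 50.2 CPM under PLX3397 and 9.18 CPM under vehicle. Of the 6 myeloid genes of the rule edgeR called 0, and 4 had a negative fold change, against 49.5% of all genes. Ptprc had 546 and 542 CPM under PLX3397 against 937 CPM under vehicle.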

How the data were processed

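The single-cell values were deposited by the authors as UMI counts per gene and barcode, made with Cell Ranger 3.1.0 for 10x per the file headers. The bulk values were deposited as read counts per gene. Per the submitters' processing notes, STAR 2.6.1e, featureCounts 1.6.2, FastQC 0.11.7, cutadapt 1.9.1, Trim Galore 0.4.2 and the build GRCm38 were used, in roles not given in the sources used here. Of the line table, 5 columns that matched no sample were not used, and 27 entries named as dates were left out of each of the tumour and line tables (at most 0.281% and 0.360% of a library), as was 1 nameless entry of the CD11b table. From these, levels were summed UMIs per 10000 over cells, with ratios of members to other eligible cells and exact 95% intervals, computed in Python 3.11.15. Thinning used a fixed seed and the neighbour graph 30 principal components of 2000 variable genes. No doublet caller was run. Bulk comparisons were fitted separately over all genes with edgeR 4.0.16 (TMM, default filter, robust quasi-likelihood, Benjamini-Hochberg threshold 0.05). DESeq2 1.42.0, run without that filter, was an alternative. CPM values are TMM-scaled. Scripts were tested on simulated data. Named genes were the 6 of the rule, the 25 highest and 15 lowest ratios, up to 4 per gene list, 8 genes most like the set and, per bulk comparison, up to 6 state genes with the smallest adjusted p; others named were chosen after their values were seen. The members and gene lists were chosen with earlier results of these data known. Replicate tumours are separate mice per the labels; for lines the labels state no more than a number. No depth other than UMIs and counts was used, and intervals cover counting error only. Values of some genes that the rule for named genes picks are not reported here, although lists and counts include them.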

Additional observations from a re-analysis of the deposited data

Results flagged for a closer look

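In 34 groups of 4 tumour libraries examined, 3 values lay apart from the rest of their group by Dixon's criterion, which chance gives in about 1 group in 20. Trnp1 had 85.1 CPM in PLX3397 replicate 1, while the other PLX3397 libraries had 22.7 to 33.01 CPM. Ly6h had 146 CPM in the same library, while the other PLX3397 libraries had 19.5 to 38.7 CPM. Otos had 0.353 CPM in vehicle replicate 2, while the other vehicle libraries had 0.1105 to 0.135 CPM, and its 8 tumour libraries held 42 counts in all.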

How the results depend on the processing

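With 1 library per single-cell method, no cell result has a replicate check. The share of members was 16.8% with a floor of 2000 UMIs, 16.5% with 3 or more genes needed, 31.9% with ties allowed and 13.7% after thinning. It was 2.48%, 3.52% and 0.315% in Drop-seq with floors of 2000 and 5000 UMIs and with 3 genes needed. Genes at 2-fold or more numbered 51, and 78 against cells of the other sets, 269 against cells with 0 genes of the set, 294 at 1.5-fold and 652 with no filter. Genes at a ratio of 0.5 or less numbered 54, and 100 against cells with 0 genes of the set, 115 at 1.5-fold, 3149 with no filter and 14 against Gsx1 and Rorb cells. The comparison with Gsx1 and Rorb cells, and those without cells of other types or over 60000 UMIs, were chosen after seeing the data.

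In the Ras tumours, DESeq2 called 174 genes and the fit with no filter 1, against 0. Leaving out each replicate gave 0 calls each time. Directions of uncalled genes reversed: the log2 fold change of Sema3d was 0.062 with the replicate block, and over the replicates left out it ranged from -0.44 to 0.83 for Trnp1, from -0.16 to 1.05 for Spock3, from -0.013 to 0.51 for Dbndd2, from -0.21 to 0.038 for Col20a1 and from -0.73 to 0.21 for Matn4. In the lines DESeq2 called 2035 genes and 15 state genes, and the fit with no filter 1 gene, against 0, and over the replicates left out the counts ranged from 0 to 2111 and, for state genes, from 0 to 16. In the CD11b-positive cells DESeq2 called 1995 genes and 19 state genes, and the fit with no filter 1907 and 15, against 956 and 9. The cause was not tested.

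The labels do not say that the replicate numbers pair the samples. Same-numbered deviations correlated at 0.11, 0.13, -0.42 and 0.45 in the tumours and at -0.18 and -0.11 in the lines. These values are too few to settle whether the numbers pair the samples. With the replicate block edgeR called 0 genes in both comparisons, and the median of the state genes in the tumours was 0.60. No paired analysis was possible because the CD11b groups share 1 number, and leaving out a library there leaves no residual degrees of freedom.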
